A study of Mus musculus with 6 samples.

Results

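The expressed antisense RNAs of mouse aortic smooth muscle cells were described here, meaning the genes that the deposited table types as antisense_RNA selected on their counts, which had to sum to at least 60 over the 6 libraries. This rule took 346 of the 851 antisense genes in the table, which holds 20199 genes in all. The libraries were bulk RNA sequencing of aortic smooth muscle cells from C57B6 mice 12 weeks old, and they compared cells that keep the microRNA miR-21 with cells in which it can be deleted. The 3 control libraries had the genotype WT/mTmG/ Myh11ERT2 and are called wild type. The other 3 had floxed miR-21 alleles with the same mTmG and Myh11ERT2 alleles, were labelled miR21 -/-, and are called knockout. In both groups mTmG is a fluorescent reporter of Cre activity, and Myh11ERT2 is a Cre that tamoxifen switches on under the smooth muscle myosin promoter. The labels used here name neither a tamoxifen treatment nor the animal behind each library, so p-values measure only the spread between these libraries, part of which may be technical.

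An antisense RNA is transcribed from the DNA strand opposite to another gene. Overlapping pairs are called head to head here when each start lies inside the other gene, and tail to tail when each end does. In other pairs either gene lies inside the other. Many antisense RNAs stay in the nucleus at low levels and are degraded there by the exosome, while a few act on their neighbours in cis: transcription of Airn silences the paternal Igf2r allele, and Kcnq1ot1 silences a cluster of imprinted genes. The Hox clusters, whose genes encode position along the body axis, hold several more. The labels name the TruSeq RNA kit but do not say if strand was kept, in the libraries or in the counting. Reads of an antisense RNA and of the gene it overlaps therefore cannot be told apart where their exons share bases. The same holds for unspliced reads from an intron of the overlapping gene, so pairs without shared exon bases are not free of it. Every value below carries that limit.

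Promoter sequences show how close some of these RNAs start to their neighbours and which promoter elements stand there. RefSeq (GRCm38.p6) gave promoter windows for 148 of the 346 members. In 15 of them the window overlapped that of the overlapping gene on the other strand. Of these divergent pairs, 3 are printed from one RefSeq start to the other, 5′ to 3′ on the plus strand. Capitals mark the GC box (GGGCGG), the CCAAT box (CCAAT), the TATA box (TATAAA) or a CArG box, the binding motif of serum response factor, on either strand. Mcam encodes a cell adhesion molecule of vascular cells, E530011L22Rik is among the members with the smallest p between genotypes, and Asxl2 encodes a chromatin regulator of the Polycomb group.
Gm10687/Mcam, 172 bases, chr9:44134486-44134657: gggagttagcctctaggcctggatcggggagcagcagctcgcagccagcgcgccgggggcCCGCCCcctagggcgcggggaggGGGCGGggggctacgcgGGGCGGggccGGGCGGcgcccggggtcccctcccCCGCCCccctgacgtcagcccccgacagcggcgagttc
E530011L22Rik/Zfp651, 89 bases, chr9:121759944-121760032: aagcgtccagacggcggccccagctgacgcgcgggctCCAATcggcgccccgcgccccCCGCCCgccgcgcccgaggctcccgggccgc
1110002L01Rik/Asxl2, 109 bases, chr12:3426748-3426856: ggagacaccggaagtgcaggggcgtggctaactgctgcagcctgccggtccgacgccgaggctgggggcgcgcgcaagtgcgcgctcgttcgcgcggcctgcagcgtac

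The stretch between Gm10687 and Mcam held 5 GC boxes and 21 CG dinucleotides. The 89 bases between E530011L22Rik and Zfp651 held 1 GC box, 1 CCAAT box and 17 CG dinucleotides, and the 109 bases between 1110002L01Rik and Asxl2 held 16 CG dinucleotides and none of the 4 motifs. None of the 3 stretches held a TATA box. In the deposited coordinates these pairs overlap, Gm10687 and Mcam by 17 bases and E530011L22Rik and Zfp651 by 614 bases.

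The second set gives the 250 bases before the RefSeq start, on the strand of the antisense RNA, for members that start within the body of the gene they overlap. E030013I19Rik has the second highest count of all members, Dnm3os is the host of microRNAs miR-199a and miR-214, Airn is the imprinted regulator of Igf2r, and Gm16299 had the smallest p of all members between genotypes.
E030013I19Rik, in Itga8, chr2:12300996-12301245, plus strand: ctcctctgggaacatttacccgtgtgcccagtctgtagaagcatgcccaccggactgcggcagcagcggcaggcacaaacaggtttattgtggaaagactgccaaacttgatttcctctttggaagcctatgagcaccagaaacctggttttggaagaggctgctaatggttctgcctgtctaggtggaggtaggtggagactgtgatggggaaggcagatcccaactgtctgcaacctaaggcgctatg
Dnm3os, in Dnm3, chr1:162217373-162217622, plus strand: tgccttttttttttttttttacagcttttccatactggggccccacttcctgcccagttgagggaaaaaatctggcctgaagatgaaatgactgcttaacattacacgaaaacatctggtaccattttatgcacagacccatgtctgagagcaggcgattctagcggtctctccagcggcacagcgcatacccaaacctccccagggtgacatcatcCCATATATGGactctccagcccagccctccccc
Airn, in Igf2r, chr17:12741061-12741310, plus strand: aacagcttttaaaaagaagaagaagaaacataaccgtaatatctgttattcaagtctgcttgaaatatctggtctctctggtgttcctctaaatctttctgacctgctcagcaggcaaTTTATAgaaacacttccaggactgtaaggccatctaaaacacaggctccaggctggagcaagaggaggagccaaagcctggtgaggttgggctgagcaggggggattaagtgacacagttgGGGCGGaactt
Gm16299, in Rbm20, chr19:53825213-53825462, minus strand: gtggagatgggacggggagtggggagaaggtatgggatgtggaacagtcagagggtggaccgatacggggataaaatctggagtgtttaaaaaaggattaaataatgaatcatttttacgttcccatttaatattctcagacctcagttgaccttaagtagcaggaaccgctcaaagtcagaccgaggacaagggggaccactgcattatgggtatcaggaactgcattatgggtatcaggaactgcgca

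The stretch before Dnm3os held 1 CArG box and no other of the 4 motifs. The stretch before Airn held 1 TATA box and 1 GC box, and those before E030013I19Rik and Gm16299 held none of the 4 motifs. In the deposited coordinates E030013I19Rik starts at 12300946. Its printed stretch therefore lies before the RefSeq start but inside the gene as counted here. Their CG content was low beside the divergent stretches, with an observed to expected ratio of CG dinucleotides of 0.286 before E030013I19Rik, 0.345 before Dnm3os, 0.157 before Airn and 0.583 before Gm16299, against 0.741 between Gm10687 and Mcam and 1.12 between E530011L22Rik and Zfp651. Over the 173 promoter windows of members, each of 300 bases (250 before and 50 after a start), 43.4% held a GC box, 35.3% a CCAAT box, 8.67% a TATA box and 1.73% a CArG box. Over all 32851 windows of the table the shares were 35.7%, 37.4%, 13.6% and 1.63%. Members were also grouped by the arrangement of their longest shared stretch. The GC box stood in 62.9% of the 35 windows of tail to tail members, in 39.7% of the 58 of head to head members and in 25.5% of the 51 of members inside their overlapping gene. The median CG ratio followed the same order at 0.835, 0.533 and 0.339, against 0.384 over all windows. A member grouped as tail to tail can start head to head with another gene, as E530011L22Rik does with Zfp651. These shares therefore do not separate divergent starts from others. A match is a description of the letters and not a binding site.

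By position in the deposited table (mm10), 324 members overlapped another gene of the table, 320 of them a protein-coding gene, and 319 had an overlapping gene on the opposite strand. The remaining 22 overlapped none of the genes analysed here. By the longest shared stretch, 130 members lay inside the overlapping gene, 102 were head to head with it, 68 were tail to tail, 13 spanned it whole and 11 lay on the same strand as the gene they shared most bases with. More than 1 gene was overlapped by 71 members, and 142 were head to head with at least 1 gene. The symbols of 35 members end in os, the sign that they are named after the gene opposite. Shared exon bases could be looked up in the GENCODE vM1 gene models for part of the pairs: exons did not overlap in 47, in 159 this was not known, and the other pairs shared exon bases.

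Most members were scarce. The median member had 143.3 counts over the 6 libraries and a mean of 1.091 CPM, the normalised count set to a common library size with TMM factors. A mean of at least 1 CPM was reached by 183 members and one of at least 10 CPM by 22. The 2 with the most counts held 44.63% of all counts of the members, and the 8 with the most held 56.85%. At the threshold itself stood 9130015G15Rik with 60 summed counts, Gm45890 with 60.27 and Gm16045 with 61.0 just inside, and Gm5106 with 59.83, Gm16172 with 59.68 and Gm45631 with 59.59 just outside. Of the 346 members, 328 passed the filter on low counts and were tested.

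The smooth muscle label was checked first. The summed level of 7 smooth muscle markers was 42050 to 48380 CPM in wild type and 43460 to 44580 CPM in knockout libraries. The 6 endothelial markers summed to 35.86 to 47.45 CPM over the 6 libraries, with 4 of them (Cdh5, Kdr, Tie1, Tek) under 1 CPM, and the 6 leukocyte markers to 1.48 to 7.526 CPM. In bulk libraries fewer cells of a type and less RNA per cell cannot be told apart. The 5 fibroblast markers summed to 118.5 to 121.9 CPM in wild type and 71.15 to 157.6 CPM in knockout libraries. Total counts ran from 17123748 to 28610649. Of the 6 libraries wild-type replicate 1 stood apart, at -58.08 on a first principal component that held 40.6% of the variance, where the others lay between 1.53 and 27.26. Values without it stand beside the results it moves most.

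The RNA with the most counts was AC122273.1 (chromosome 9, 45930112 to 45933738, plus strand), which lies whole inside Tagln, the gene of the actin-binding protein transgelin and a marker of contractile smooth muscle. It had 10004, 9591 and 11375 counts in the wild-type libraries and 7226, 11032 and 11209 in the knockout libraries. Relative to Tagln its counts were nearly constant, at 7.136%, 7.152% and 6.672% in wild type and 6.781%, 7.707% and 6.515% in knockout. The groups overlapped in both measures. The log2 fold change between genotypes (knockout minus wild type) was -0.18 for AC122273.1 and -0.18 for Tagln, with an adjusted p of 0.8061 and 0.7867 by edgeR's quasi-likelihood test. Without wild-type replicate 1 it was -0.025 for AC122273.1 and -0.043 for Tagln. Whether these counts are RNA of the antisense strand or reads of Tagln was not tested.

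E030013I19Rik (chromosome 2, 12300946 to 12312315, plus strand) is head to head with Itga8, which encodes the integrin α8 chain of smooth muscle, and shares 977 bases with it, 369 of them exonic in both. It had 4084, 6648 and 10338 counts in wild type and 5889, 5969 and 8658 in knockout. Its counts were 17.69%, 8.774% and 7.999% of those of Itga8 in wild type and 5.956%, 10.15% and 7.401% in knockout. The high value belonged to wild-type replicate 1, where Itga8 was at 1373 CPM against 2640 to 5628 CPM in the other 5 libraries and E030013I19Rik was at 242.8 CPM against 268.0 to 361.9 CPM. The log2 fold change was -0.05 ± 0.17 (SE, n = 3 against 3) for E030013I19Rik and 0.35 ± 0.41 for Itga8, with no test passed, and -0.20 and -0.015 without that library. Per kilobase of exon, E030013I19Rik reached 22.08% of the level of Itga8.

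Tug1, a widely expressed long noncoding RNA that faces the chromatin regulator gene Morc2a head to head over 180 bases, had 751, 1651 and 2489 counts in wild type and 1881, 1789 and 2491 in knockout. In CPM, wild-type replicate 1 was lowest at 44.65 and the other 5 libraries lay between 80.33 and 107.1. Its log2 fold change of 0.35 ± 0.24 became 0.10 without that library. Brip1os, which spans Ints2, a subunit of the Integrator complex, had 471, 577 and 923 counts in wild type and 625, 554 and 795 in knockout, with means of 29.88 ± 2.206 and 29.58 ± 5.464 CPM (SD, n = 3). Gm13111, with no overlapping gene among those analysed, had 31.75, 31.53 and 28.64 CPM in wild type against 26.24, 26.67 and 28.33 CPM in knockout. All knockout values of Gm13111 lay below all wild-type values, and its adjusted p by edgeR was 0.7783.

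Gm17056, head to head with the membrane protein gene Lsmem1, varied most for its mean among the 8 with the most counts, at 67.65, 13.53 and 23.98 CPM in wild type against 10.13, 32.47 and 21.82 CPM in knockout. Its log2 fold change of -0.69 ± 0.56 became 0.19 without wild-type replicate 1, the highest library, and that of Lsmem1 went from -0.61 to 0.25. Lsmem1 varied alongside it: Gm17056 stayed between 356.0% and 462.8% of the count of Lsmem1 in the 6 libraries. The imprinted RNA Kcnq1ot1 had 38.05, 11.85 and 21.11 CPM in wild type against 21.35, 33.77 and 19.93 CPM in knockout, and the groups overlapped. Its log2 fold change of 0.085 ± 0.37 became 0.59 without wild-type replicate 1. Rab10os, tail to tail with the vesicle GTPase gene Rab10, had 17.06, 14.19 and 16.7 CPM in wild type against 17.53, 23.62 and 17.41 CPM in knockout. All 3 knockout values of Rab10os were higher, by a gap smaller than the range of either group, and its log2 fold change was 0.29 ± 0.16 (adjusted p 0.7783, edgeR).

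**Figure D1:**
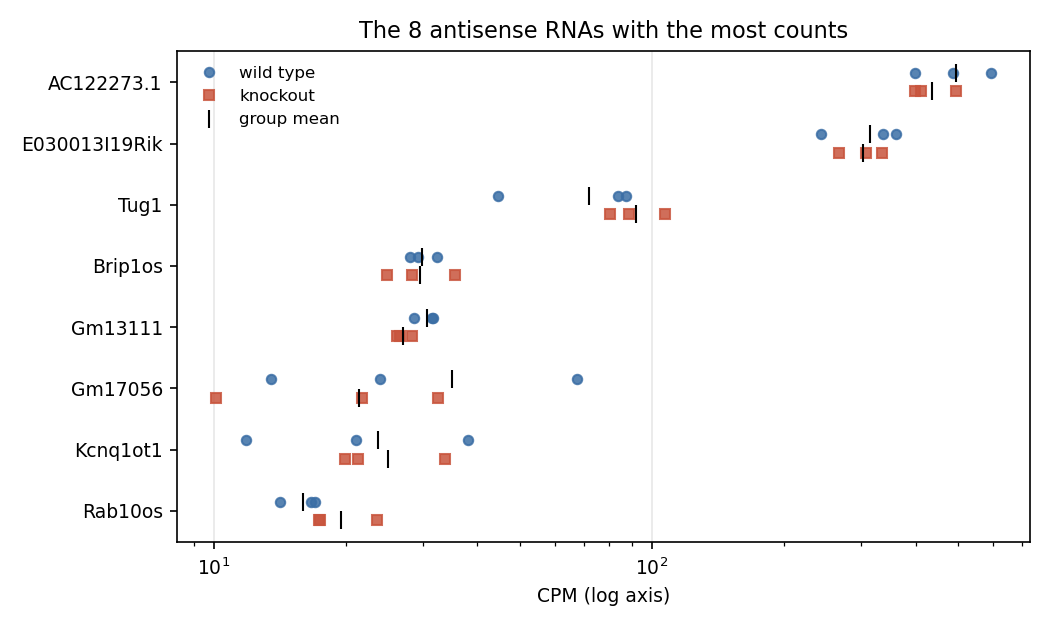
CPM (log axis) of the 8 antisense RNAs with the most counts in the 3 wild-type (circles) and 3 knockout (squares) libraries, with a bar at each group mean. AC122273.1 and E030013I19Rik stand above the rest, and Gm17056 and Kcnq1ot1 have the widest spread between libraries of one genotype.

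Next the members were set beside the coding genes they overlap. Over the 320 pairs, the antisense count had a median of 2.663% of the count of the overlapping gene. It was below 1% in 95 pairs, at least 10% in 73 and above 100% in 27. Across these pairs the log2 summed counts of the antisense RNA and of the overlapping gene had a Pearson r of 0.09985, a description across genes, which are not independent. Levels were compared per kilobase of exon in the 164 pairs whose exon lengths are in the GENCODE vM1 models. There the antisense RNA had a median of 8.089% of the level of the overlapping gene and exceeded it in 18 pairs.

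By counts the arrangements differed. The medians were 1.404% for the 131 pairs where the antisense RNA lies inside the gene and 3.995% for the 103 head to head. They were 4.023% for the 69 tail to tail and 32.31% for the 11 where it spans the gene. Per kilobase the medians were close to each other, at 7.778%, 8.471%, 8.439% and 8.844% for the 62, 46, 46 and 6 pairs with known lengths. These are fewer pairs than those behind the count medians, so the closeness cannot be put down to length. In each of the 6 spanning pairs with known lengths, the percent per kilobase was higher than the percent by counts. The fall from 32.31% to 8.844% therefore came with the smaller set of pairs and not with the scaling. Among the pairs in which the antisense RNA exceeded the coding gene per kilobase, Gm15533 stood at 4804% of Trim72, a muscle membrane repair gene, and Gm4673 at 1929% of Lsr, an epithelial lipoprotein receptor gene. Dnm3os stood at 601.9% of Dnm3, a dynamin gene, Tug1 at 151.4% of Morc2a, and A830082K12Rik at 119.2% of Nr2f1, a nuclear receptor gene. Unlike the members, the coding genes had to reach no minimum count beyond 0. Dnm3 held 195 counts and Nr2f1 272 counts over the 6 libraries. Gm10687, printed above, stood at 1.913% of Mcam.

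**Figure D2:**
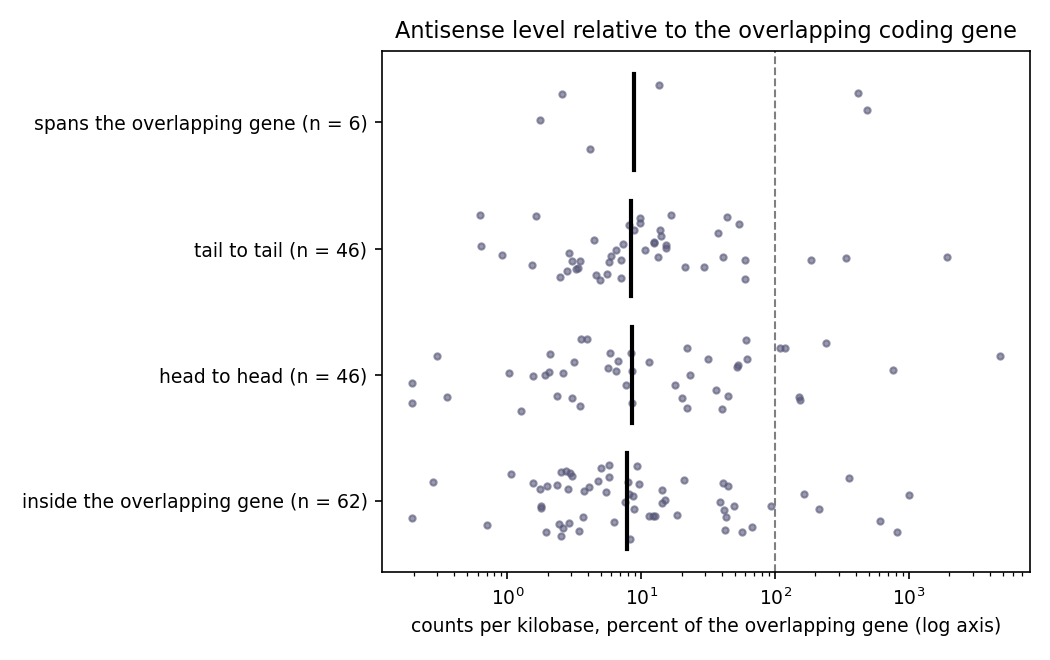
Counts per kilobase of exon of each antisense RNA as a percent of those of the coding gene it overlaps (log axis), for 4 arrangements, with a bar at each median and a dashed line at equal levels. The 4 medians lie between 7.778% and 8.844%, and 18 pairs lie beyond 100%.

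Between genotypes, none of the 328 tested members passed an adjusted p of 0.05 by edgeR's quasi-likelihood test, where 0% of all 15185 genes tested passed. DESeq2 called none of the members and 0.448% of all genes tested, and limma voom called none of the members and 0% of all genes. The smallest adjusted p among members was 0.5071 by edgeR. At an unadjusted p under 0.05, edgeR listed 13 members (3.96%), 6 higher and 7 lower in knockout, against 6.29% of all genes tested, 2.85% higher and 3.44% lower. DESeq2 listed 10 members at that threshold, against 6.34% of all genes, and limma voom 14, against 6.52%. The groups did not overlap in 33 members (10.1%), 17 higher and 16 lower, against 14.5% of all genes tested, 6.95% higher and 7.57% lower. A share below the background is no result about the members.

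The members spread around zero, with 170 higher and 158 lower in knockout and a median log2 fold change of 0.01, against a median of -0.00078 over all genes tested. The median absolute log2 fold change was larger for members than for all genes tested, 0.256 against 0.1661. Members also varied more between libraries of the same genotype, with a median coefficient of biological variation of 0.2942 against 0.1627. The genes were not matched for level here, and its part in both differences was not tested. Without wild-type replicate 1, edgeR called 0 of 341 members tested, with 0.0577% of all genes called, listed 19 at an unadjusted p under 0.05 (13 higher and 6 lower, 5.57%, against 7.44% of all genes, 3.68% higher and 3.77% lower), and gave a median log2 fold change of 0.135.

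The members named next are the 6 of smallest unadjusted p for each direction among those with at least 0.5 CPM and groups that do not overlap, all 12 with an adjusted p between 0.5071 and 0.7783 by edgeR. They are given as measurements that did not pass the test. Gm16299 (chromosome 19, 53819354 to 53825128, minus strand) lies inside Rbm20, which encodes a splicing regulator of titin and other muscle genes. It had 28, 19 and 53 counts in wild type and 10, 6 and 12 in knockout, with means of 1.495 ± 0.4681 and 0.4219 ± 0.15 CPM (SD, n = 3). Every knockout library was below every wild-type library, and the log2 fold change was -1.84 ± 0.44 (SE), with an unadjusted p of 0.002373 and an adjusted p of 0.5071 by edgeR. DESeq2 gave it an adjusted p of 0.1111. Leaving out wild-type replicate 1 gave a log2 fold change of -1.77. Rbm20 itself had a log2 fold change of -0.25 ± 0.21, and Gm16299 made up 28.0%, 17.12% and 22.46% of the count of Rbm20 in wild type and 9.091%, 5.505% and 7.547% in knockout.

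E530011L22Rik (chromosome 9, 121754662 to 121759943, minus strand) is tail to tail with Nktr, which encodes a cyclophilin-related protein, and head to head with the zinc finger gene Zfp651. The bases between its RefSeq start and that of Zfp651, with a GC and a CCAAT box, are printed above. It had 9.987, 7.017 and 5.391 CPM in wild type against 3.928, 4.85 and 4.307 CPM in knockout. All knockout values were lower, and the log2 fold change was -0.76 ± 0.25, or -0.50 without wild-type replicate 1. Nktr and Zfp651 had log2 fold changes of 0.18 ± 0.21 and 0.07 ± 0.12, and 0.39 and 0.09 without that library. No exon bases are shared with either gene in the GENCODE vM1 models.

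Gm30003 (chromosome 5, 134747042 to 134822967, plus strand) is head to head with Eln, the elastin gene, over 282 bases. It had 122, 72 and 104 counts in wild type and 51, 54 and 81 in knockout, or 7.253, 3.661 and 3.641 CPM against 2.903, 2.425 and 2.883 CPM. All knockout values were lower, with wild-type replicate 1 far above the other libraries. The log2 fold change was -0.81 ± 0.31, beside -0.94 ± 0.21 for Eln, and it was -0.42 for Gm30003 and -0.64 for Eln without wild-type replicate 1. Gm30003 stayed between 0.03508% and 0.04359% of the count of Eln in all 6 libraries, the smallest share of the 320 pairs. Eln had an adjusted p of 0.4893 by edgeR and 0.005708 by DESeq2.

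Gm29724 (chromosome 9, 30954087 to 31031205, minus strand) runs tail to tail into Adamts8, a secreted protease gene, and starts head to head with Zbtb44, a transcription factor gene. It had 51, 57 and 150 counts in wild type and 39, 47 and 50 in knockout, or 3.032, 2.898 and 5.251 CPM against 2.22, 2.11 and 1.78 CPM. Its log2 fold change of -0.89 ± 0.30 stood beside -0.59 ± 0.18 for Adamts8 and 0.27 ± 0.19 for Zbtb44, the last at 0.076 without wild-type replicate 1. Wild-type replicate 3 held the highest value, and without it the log2 fold change of Gm29724 was -0.548, with an unadjusted p of 0.0996 by edgeR. The groups did not overlap. 2310068J16Rik, inside the RNA-binding protein gene Larp4, had 24, 19 and 24 counts in wild type and 10, 11 and 13 in knockout, a log2 fold change of -1.07 ± 0.40. 6330418K02Rik, tail to tail with the sulfotransferase gene Gal3st4, had 3.983, 4.068 and 4.446 CPM in wild type against 3.074, 3.233 and 2.705 CPM in knockout, a log2 fold change of -0.48 ± 0.21, and neither RNA's groups overlapped.

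Among the RNAs with higher values in knockout, Gm15475 lies inside Dysf, the gene of the membrane repair protein dysferlin, and had 4, 9 and 6 counts in wild type and 14, 19 and 22 in knockout, a log2 fold change of 1.43 ± 0.46. Gm14705, head to head with the transcription elongation gene Aff2, had 10, 8 and 22 counts in wild type and 31, 26 and 32 in knockout, a log2 fold change of 1.16 ± 0.40. In both the groups did not overlap, and no library held more than 32 counts of either RNA. AC158232.1, inside the endocytosis gene Itsn2, had 8, 11 and 17 counts in wild type and 11, 56 and 38 in knockout, and knockout replicate 1 at 0.6261 CPM stood close to wild-type replicate 3 at 0.5951 CPM. Its log2 fold change of 1.455 ± 0.51 became 0.88 without knockout replicate 2, the highest library.

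Gm4524, tail to tail with the collagen prolyl hydroxylase gene P3h2, had 2.2, 2.746 and 2.59 CPM in wild type against 5.009, 2.874 and 4.841 CPM in knockout, with P3h2 at a log2 fold change of 0.40 ± 0.18 beside 0.75 ± 0.27 for Gm4524, and 0.21 beside 0.67 without wild-type replicate 1. Gm20655, head to head with the taxilin gene Txlnb, had 8.442, 8.288 and 8.051 CPM in wild type against 11.56, 11.36 and 9.468 CPM in knockout, a log2 fold change of 0.38 ± 0.15 with the smallest standard error of the 12. AC158954.1, tail to tail with the carboxypeptidase gene Cpq, had 9, 8 and 15 counts in wild type and 21, 16 and 26 in knockout. In these 3 RNAs all knockout values lay above all wild-type values.

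**Figure D3:**
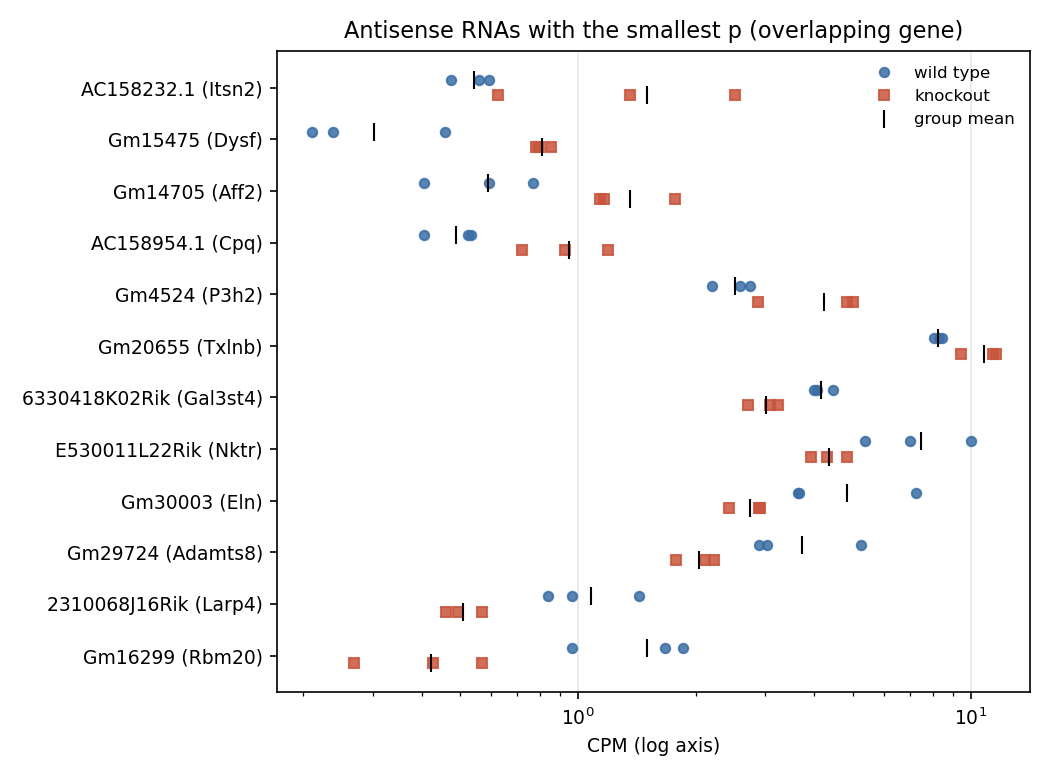
CPM (log axis) of the 12 antisense RNAs with the smallest unadjusted p, with the overlapping gene in brackets, in wild-type (circles) and knockout (squares) libraries, with a bar at each group mean. The groups do not overlap in any of the 12, which is part of the rule that chose them, and none passed the adjusted test.

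The ratio of an antisense RNA to its overlapping gene was compared between genotypes in 44 pairs of 32 named members. The groups did not overlap in 8 pairs of 7 members, where the exact 2-sided permutation test gave its smallest possible p for 3 against 3, 0.1, and 0.55 after Benjamini-Hochberg adjustment over the 44. The log2 ratio was higher in knockout for Gm15475 to Dysf (1.02), Gm14705 to Aff2 (1.24) and AC158954.1 to Cpq (0.74). It was lower for Gm16299 to Rbm20 (-1.40), E530011L22Rik to Nktr (-0.91) and to Zfp651 (-0.79), Gm29724 to Zbtb44 (-1.09) and 2310068J16Rik to Larp4 (-1.03). All 7 members had been chosen for a small p between the same groups, so these ratios add no independent support. For Gm30003 to Eln and Gm29724 to Adamts8, the difference of the log2 ratio was 0.16 and -0.22, and the groups overlapped.

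Some members have a described role. Airn (chromosome 17, 12741311 to 12860122, plus strand), head to head with Igf2r over 28354 bases with no shared exon in the GENCODE vM1 models, had 7.372, 6.102 and 5.776 CPM in wild type against 7.741, 9.924 and 7.155 CPM in knockout. The groups overlapped, and the log2 fold change was 0.37 ± 0.19 beside 0.36 ± 0.25 for Igf2r, which encodes the receptor that clears insulin-like growth factor 2. Without wild-type replicate 1 it was 0.48 for Airn, with an unadjusted p of 0.03212 by edgeR, and 0.092 for Igf2r. Without knockout replicate 2 it was 0.219 for Airn. In wild-type replicate 1 Airn reached 14.85% of the count of Igf2r, where the other 5 libraries lay between 5.826% and 9.457% and Igf2r was at its lowest, 49.64 CPM.

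Dnm3os, inside Dnm3, had 3.448, 6.509 and 5.566 CPM in wild type against 4.611, 4.535 and 3.702 CPM in knockout, and wild-type replicate 1 was the lowest of all. Its log2 fold change of -0.28 ± 0.26 became -0.50 without that library, and leaving out each single library in turn gave -0.497 to -0.0869. Foxo6os, named after a forkhead factor gene, overlapped none of the genes analysed here and no other gene in RefSeq. It had 14, 8 and 14 counts in wild type and 28, 13 and 33 in knockout, a log2 fold change of 0.96 ± 0.49 with overlapping groups. Zeb2os, inside the zinc finger repressor gene Zeb2, had 8 to 15 counts in wild type and 11 to 16 in knockout.

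Vascular or Hox transcription factor genes were overlapped by 10 members. Hotairm1, a noncoding RNA of a Hox cluster, had 9.571, 5.39 and 5.986 CPM in wild type against 5.066, 6.376 and 6.407 CPM in knockout. Hoxb3os, over Hoxb3 and Hoxb2, had 10.52, 5.898 and 4.061 CPM in wild type against 6.261, 4.535 and 8.045 CPM in knockout. Gm15050, inside Hoxa3, had 3.983, 1.831 and 2.941 CPM in wild type against 2.561, 2.38 and 2.527 CPM in knockout. In these 3 RNAs wild-type replicate 1 was highest, the groups overlapped, and the log2 fold changes of -0.22, -0.10 and -0.22 became 0.07, 0.35 and 0.05 without it. Hoxaas3, which runs across Hoxa3 to Hoxa7, had 13 to 29 counts in wild type and 22 to 34 in knockout. A830082K12Rik, head to head with Nr2f1, had 1.893 ± 0.3827 CPM in wild type against 1.813 ± 0.3673 CPM in knockout (SD, n = 3).

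The matrix genes overlapped by members were Eln, Vcan, Loxl2 and Adamts9. Gm4117 shared 3050 bases head to head with Vcan, the gene of the proteoglycan versican, and 113140 bases tail to tail with Xrcc4. It had 9.631, 10.53 and 16 CPM in wild type against 12.69, 13.92 and 9.86 CPM in knockout, a log2 fold change of 0.00097 ± 0.22, or -0.14 without wild-type replicate 1. Gm27177, head to head with Loxl2, which encodes a crosslinking enzyme of collagen and elastin, had 4.637, 7.17 and 4.061 CPM in the wild-type libraries and 10.7, 1.212 and 6.514 CPM in the knockout libraries. Knockout replicate 2 alone stood low for Gm27177, at 1.889% of the count of Loxl2 against 8.985% to 18.95% in the other 5 libraries. 9530026P05Rik, head to head with the protease gene Adamts9, had 4.815, 3.203 and 3.886 CPM in wild type against 4.383, 4.85 and 5.09 CPM in knockout. Besides the RNAs in Tagln and Itga8, the contractile genes gave 2 members in Actn1, the α-actinin gene: CT030161.2 at 2.064 ± 0.7901 and 1.651 ± 0.3354 CPM and CT030161.3 at 0.8221 ± 0.2179 and 0.9383 ± 0.5111 CPM in wild type and knockout (SD, n = 3).

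Genotype differences of antisense RNAs and of the genes they overlap were then set side by side for the 290 pairs in which both were tested. They had the same sign in 170 pairs (58.62%), 94 with both higher and 76 with both lower in knockout. Across pairs the Pearson r of the log2 fold changes was 0.2056 and Spearman's rho 0.2185, a description across genes of the same 6 libraries. Without wild-type replicate 1 the signs matched in 162 of 303 pairs (53.47%), with an r of 0.1356. Head to head pairs had an r of 0.2807 (93 pairs), tail to tail pairs 0.298 (63), members inside a gene 0.1245, members that span one 0.5689 (9) and members on the same strand as the gene -0.2031 (7). Pairs whose exons share bases had an r of 0.1798 (110 pairs) and pairs whose exons do not had 0.2664 (43). The difference between these sets was not tested, and all pairs share the same 6 libraries.

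Of 380 tested coding genes overlapped by members, 27 (7.11%) had an unadjusted p under 0.05, against 6.29% of all genes tested. They formed 27 pairs with 24 members, a set chosen after its values were seen. The antisense RNA differed in the same direction as the gene in 18 of the 27, and in 10 of the 14 head to head pairs. By longest shared stretch these shares were 58.62% over all 290 pairs and 59.14% over the 93 head to head pairs. Some members enter more than 1 of the 27 pairs, which are therefore not independent. The largest log2 fold change of these genes, 1.948 for Pcdhga1, stood beside -0.2715 for BC037039, which lies inside it. Of the 24 members 2, Gm30003 and Gm29724, had an unadjusted p under 0.05 themselves, beside 13 of all 328 tested members. 4930524O07Rik, head to head with Manf, the gene of a secreted endoplasmic reticulum stress protein, had 13, 14 and 13 counts in wild type and 9, 5 and 7 in knockout, a log2 fold change of -0.99 ± 0.51 beside -0.81 for Manf. In CPM the groups of 4930524O07Rik overlapped, and its adjusted p by edgeR was 0.7783. Without wild-type replicate 1 the log2 fold changes were -0.84 for 4930524O07Rik and -0.57 for Manf. 1110002L01Rik, whose start stands 109 bases from that of Asxl2, had 6.718, 4.932 and 6.196 CPM in the controls and 6.489, 9.744 and 7.831 CPM in the knockout libraries, a log2 fold change of 0.43 ± 0.21 beside 0.38 for Asxl2.

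DESeq2 called Ampd2 and Fbxo32 higher in knockout, with adjusted p of 0.04902 and 0.04519. By edgeR neither passed, with adjusted p of 0.5071 and 0.5302. Their head to head members Gm12500 and Gm15943 had log2 fold changes of 0.32 ± 0.51 and 0.21 ± 0.49 on 8 to 33 and 13 to 54 counts a library. Without wild-type replicate 1 these were 0.51 and 0.13. Ampd2 encodes an AMP deaminase and Fbxo32 the ubiquitin ligase atrogin-1. Gm44284, head to head with the focal adhesion gene Zyx, had a log2 fold change of 0.19 ± 0.54 beside -0.31 for Zyx, and 0.43 without wild-type replicate 1.

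**Figure D4:**
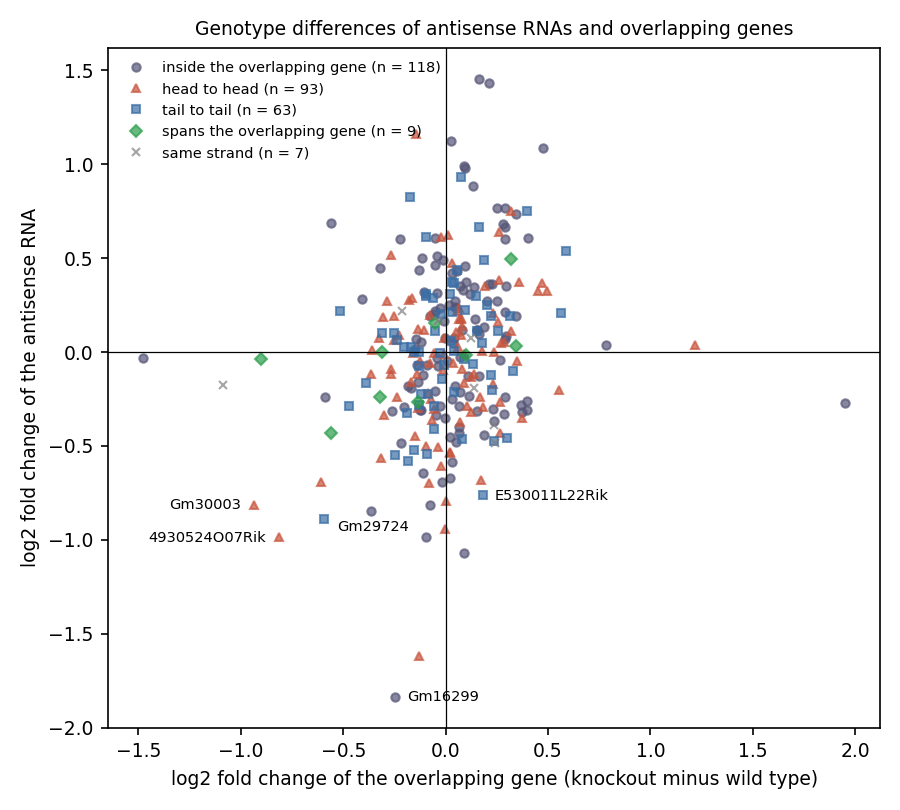
Log2 fold change (knockout minus wild type) of each antisense RNA (vertical) against that of the gene it shares most bases with (horizontal), 290 pairs marked by arrangement. Most overlapping genes lie within 0.5 of zero while antisense RNAs spread wider, and Gm30003, Gm29724 and 4930524O07Rik lie in the lower left with both members of the pair lower.

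Wild-type replicate 1 held the lowest value less often among antisense RNAs than among genes as a whole. It held the lowest CPM for 11.56% of the 346 members and for 32.46% of all genes tested, and the highest for 32.95% and 32.05%. Wild-type replicate 2 held the lowest value for 25.72% of members against 12.62% of all genes. The members counted here include 18 that were not tested. Members and all genes were not matched for level, and the part of level in these differences was not tested. The median member stood 0.20 above its own mean log2 CPM in wild-type replicate 1 and 0.11 above it in knockout replicate 2, and 0.11 below it in wild-type replicate 2.

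Members held 0.1906%, 0.1652% and 0.1668% of the counts in the wild-type libraries and 0.1698%, 0.177% and 0.1679% in the knockout libraries (2-sided exact permutation p of 1.0, and 1.0 after Benjamini-Hochberg adjustment over 7 shares compared). Without AC122273.1 and E030013I19Rik the shares were 0.1084%, 0.08471% and 0.09089% against 0.09361%, 0.1007% and 0.09582% (exact permutation p of 0.8, adjusted 0.9333). Genes typed TEC, which await experimental support, held 0.4489%, 0.1832% and 0.2375% against 0.1985%, 0.3136% and 0.2178%, and lincRNAs 1.364%, 0.6607% and 0.7592% against 0.6216%, 0.9706% and 0.7287%. These 3 classes, the antisense one taken without its 2 largest members, were highest in wild-type replicate 1 and next highest in knockout replicate 2. Genes typed sense_intronic were not, at 0.01947%, 0.01819% and 0.02026% against 0.0201%, 0.021% and 0.01809%. The order was not confined to these classes. The genes Lars2 and CT010467.1 together showed it too, at 3.312%, 2.153% and 1.735% against 1.979%, 2.309% and 2.031%. Processed pseudogenes were also highest in wild-type replicate 1 but not next highest in knockout replicate 2, at 2.305%, 1.919% and 1.952% against 1.827%, 1.914% and 1.942%. What moves these shares was not tested.

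**Figure D5:**
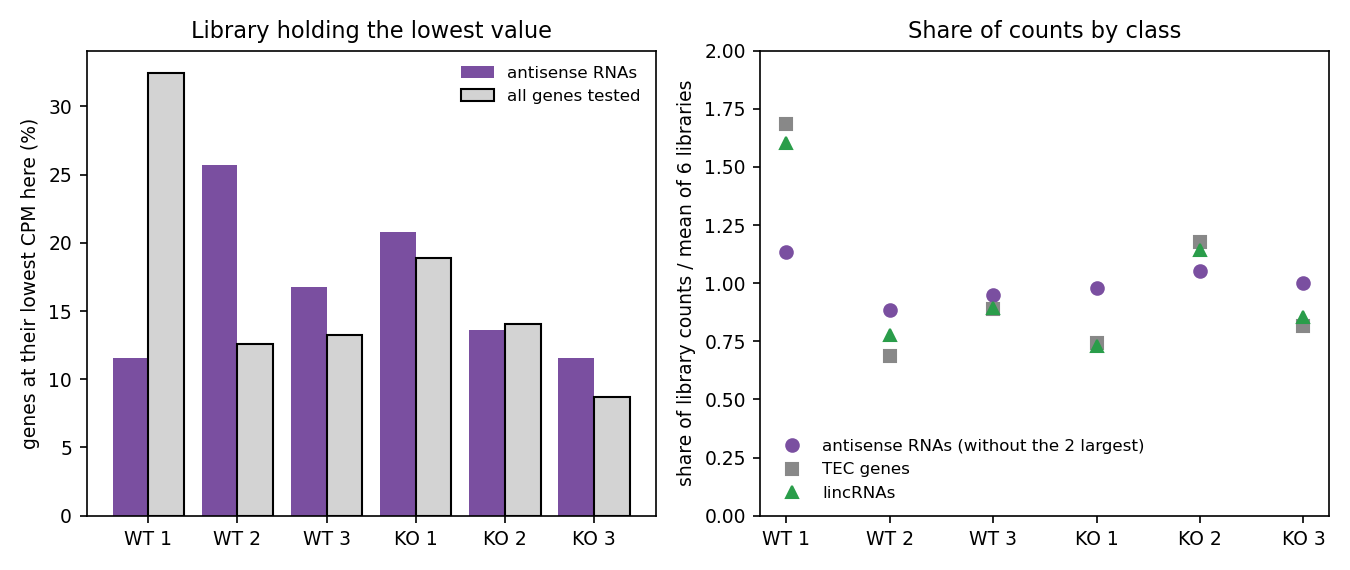
Left, the percent of antisense RNAs (filled bars) and of all genes tested (grey bars) whose lowest CPM falls in each library. Right, the share of library counts of antisense RNAs without the 2 largest (circles), TEC genes (squares) and lincRNAs (triangles), each divided by its mean over the 6 libraries. Wild-type replicate 1 holds the lowest value for 11.56% of antisense RNAs against 32.46% of all genes, and the 3 classes drawn peak there.

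Genes that act on antisense RNAs were read from 3 lists. Of 23 tested genes of the nuclear exosome and its adaptors, which degrade such RNAs, none passed edgeR's adjusted test, 12 were higher and 11 lower in knockout, and the median log2 fold change was 0.0020, or 0.036 without wild-type replicate 1. Of 23 tested genes of early termination, which ends unproductive transcription, none passed, 15 were higher and 8 lower, and the median was 0.03, or -0.034 without wild-type replicate 1, with the Integrator subunit Ints3 at 0.29 and the cleavage factor Cstf3 at -0.29. Of 19 tested genes that sense or edit double-stranded RNA, none passed, 12 were higher and 7 lower, and the median was 0.08, or 0.0097 without that library. Mavs, the mitochondrial adaptor of RNA sensing, had 39.5 ± 3.103 CPM in wild type against 49.51 ± 1.228 CPM in knockout, and Ifih1, the sensor MDA5, had 2.61 ± 0.1961 and 1.504 ± 0.4338 CPM (SD, n = 3). Their adjusted p was 0.7755 each by edgeR, and over all genes tested the median log2 fold change was -0.00078.

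The lists that hold the overlapped genes gave the setting of the members above. None of 24 contractile, 31 matrix and 54 vascular or Hox transcription factor genes tested passed edgeR's adjusted test. DESeq2 called 2 of the 31 matrix genes, beside 0.448% of all genes tested. Of the contractile genes 9 had a positive and 15 a negative log2 fold change, with a median of -0.05 (-0.023 without wild-type replicate 1). Of the matrix genes these were 12 and 19, with a median of -0.13 (-0.15 without that library). Of the transcription factor genes they were 33 and 21, with a median of 0.03 (0.083 without that library).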

How the data were processed

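The members and gene lists were chosen with earlier results of these data known. Values in the deposited table were taken for expected counts, since 65.4% lay within 0.01 of a whole number. STAR 2.6, DESeq2 and mm10 are named in the submitters' processing notes, without the counting tool. Expected counts were rounded, and the deposited stop coordinates were lowered by 1 base to match the mm10 gene ends. Genes were kept with filterByExpr (15185), scaled with TMM factors and tested with edgeR 4.0.16 (glmQLFit and glmQLFTest, robust, 2-sided, R 4.3.3), adjusted over all tested genes by Benjamini-Hochberg at a threshold of 0.05. DESeq2 1.42.0, limma 3.58.1 (voom), other scalings and filters and leaving out each library were alternatives, and DESeq2 without wild-type replicate 1 was added after seeing the data. CPM are TMM-scaled, and ratios used a prior count of 2. The script was tested on simulated data. Same-numbered libraries of the 2 genotypes did not deviate together (r of -0.2697, -0.1772 and -0.0835), so the numbers were not taken to pair them.

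Members were named by rule: the 8 of highest mean CPM, the 6 of smallest p in each direction with at least 0.5 CPM and groups that do not overlap, those with a described role, those overlapping contractile, matrix or vascular transcription factor genes (up to 4 a list), and the 3 on either side of the threshold. Others were chosen after their values were seen, and symbols that read as dates are not named. Exon lengths and shared exon bases came from GENCODE vM1 gene models on NCBIM37, used for lengths only. Members outside those models have none. Library totals of 17123748 to 28610649 counts set the precision of scarce members. Values of some overlapping genes are not reported here.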

Additional observations from a re-analysis of the deposited data

How the results depend on the processing

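No member was called under any alternative run. At an unadjusted p under 0.05, edgeR listed 13 members (3.96%, against 6.29% of all genes tested). The count was 7 with the stricter filter of 50 counts and 8 with a replicate block. With single libraries left out it lay between 8 (without wild-type replicate 3) and 19 (without wild-type replicate 1, 5.57% against 7.44% of all genes). The stricter filter tested fewer members, with 83 pairs left against 290, so its count cannot be set against 13. Shares over all genes are not given here for the other runs. The pair correlation of 0.206 became 0.485 with the stricter filter, on fewer pairs. The replicate block gave a median log2 fold change of 0.0158 and a pair correlation of 0.211.

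Of 477 alternative log2 fold changes of 35 named members, 440 kept their direction and 37 values of 13 members reversed, and the cause was not tested. Brip1os was 0.0233 with library totals. Gm4117 was -0.00107 with the stricter filter and -0.0185 by voom, Gm27177 -0.228 by voom and -0.0533 with the replicate block, and Hoxb3os 0.0544 by voom. DESeq2 without wild-type replicate 1 gave 0.197 for Gm17056, 0.0695 for Hotairm1, 0.0458 for CT030161.2, -0.131 for Gm4117, 0.347 for Hoxb3os, 0.0494 for Gm15050 and 0.118 for A830082K12Rik. Leaving out single libraries gave -0.204 to 0.0628 for E030013I19Rik, -0.167 to 0.0936 for Brip1os, -1.11 to 0.193 for Gm17056, -0.228 to 0.588 for Kcnq1ot1, -0.365 to 0.0673 for Hotairm1, -0.246 to 0.421 for Zeb2os, -0.487 to 0.0436 for CT030161.2, -0.342 to 0.452 for CT030161.3, -0.14 to 0.264 for Gm4117, -0.429 to 0.699 for Gm27177, -0.381 to 0.351 for Hoxb3os, -0.46 to 0.0475 for Gm15050 and -0.218 to 0.115 for A830082K12Rik. The median log2 fold change of the members lay between -0.044 and 0.135 when single libraries were left out. The median member has 143.3 counts over 6 libraries, which limits the precision of its values, and what size of difference this depth can show was not tested.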
